A study of Mus musculus with 24 samples.

Results

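Npy, Gal, Vip, Adcyap1, Nts and Cck are 6 genes for neuropeptides, and their levels were followed in dorsal root ganglia (DRGs) of mice after a lesion of the sciatic nerve. The members were taken by name: every non-control probe whose gene name in the array files was one of the 6, which gave 7 probes (2 for Cck, 1 for each other gene) of 41174 probes and 6 of 27398 gene names. RNA from 24 DRG samples was labelled with Cy3 or Cy5 and hybridised in pairs to 12 Agilent whole-genome arrays on 3 slides, and each dye channel was read as 1 sample. There were 6 groups of 4 samples. Wild-type (WT) mice and mice lacking Nfil3 (KO) were each sampled as control, at 2 days and at 5 days after the lesion. NFIL3 is a basic leucine zipper repressor of transcription.

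All groups were adult male mice. The KO was a whole-body deletion, made with a Cre under a human CMV promoter and backcrossed to C57BL/6J, and the WT mice were littermates. The left sciatic nerve was cut and its ends were joined again with sutures. L4 and L5 DRGs were taken, and control tissue, labelled day 0, came from the side without injury. The labels call the tissue DRG neurons, but whole ganglia with their glia were dissected. The labels number the samples of a group without saying whether animals were pooled, so p-values measure the spread between these samples.

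Neuropeptides are cut from longer precursors in secretory granules and act on G protein-coupled receptors. In a DRG without injury, galanin is made by few sensory neurons, and neuropeptide Y (Npy), vasoactive intestinal peptide (Vip) and cholecystokinin (Cck) are scarce. Cutting the peripheral axon is known to switch the peptide set of these neurons: substance P and CGRP, the peptides of pain fibres, decline, while galanin, Npy, Vip and PACAP (the product of Adcyap1) rise.

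The probes of Npy, Gal and Nts are shown because the results below turn on their readings. Their place in exons or untranslated parts was not looked up, and a script found 3, 1 and 2 reading frames without a stop codon in them. In the 60-base probes, 5′ to 3′, capitals mark an AAGAGA or AAGAGG stretch, letters that can encode a pair of basic residues such as those at which convertases cut a precursor.
Npy probe: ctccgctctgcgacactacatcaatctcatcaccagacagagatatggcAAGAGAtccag
Gal probe: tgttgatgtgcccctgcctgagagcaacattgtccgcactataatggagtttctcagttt
Nts probe: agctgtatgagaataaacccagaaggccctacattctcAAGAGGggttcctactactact
The Npy and the Nts probe hold 1 such stretch each, and the Gal probe holds 0. Per the files, in build mm9, the Npy probe lies on chromosome 6 from 49773743 to 49777505, a span of 3763 bases for a probe of 60, so that it crosses a splice junction. The Gal probe lies on chromosome 19 from 3411143 to 3411202, the Nts probe on chromosome 10 from 101944967 to 101945026, the Adcyap1 probe on chromosome 17 from 93604401 to 93604460 and the Vip probe on chromosome 10 from 4699238 to 4699297. The Cck probes lie on chromosome 9, the brighter from 121399031 to 121399090 and the dimmer from 121402514 to 121402573.

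Values are log2 normalized intensities, and a difference of 1 is a doubling. Between 54.5% and 72.3% of probes were well above background in a sample, no spot was saturated, and samples of a group correlated at 0.976 to 0.9947 over 21643 probes. A difference was called at an adjusted p under 0.05 (limma, Benjamini-Hochberg over all probes). Nfil3 was read first as a check of the labels. Its brighter probe lay between 8.52 and 9.11 in the WT controls and between 10.42 and 11.16 in the lesioned WT samples. In the lesioned KO samples it lay between 2.89 and 6.28. KO day 2 replicates 1 and 4 (5.35 and 6.28) and KO day 5 replicates 1 and 3 (5.86 and 5.71) shared an array with a lesioned WT sample. These were well above background. The other lesioned KO samples shared an array with a KO sample, read 2.89 to 4.17 and were not. The part of the array partner in these readings was not tested. In 3 KO controls the probe lay between 2.99 and 4.39. KO control replicate 4 read 7.66, and for this sample the day label says 5 while title and source name say control. Where the probes lie against the deleted part was not checked. The KO differences of the members from control, and those of receptors and other peptide genes at day 5, are given with and without it. Atf3, a transcription factor of injured neurons, lay between 7.31 and 10.08 in the 8 controls and between 13.02 and 14.19 in the 16 lesioned samples.

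After the lesion, 4 of the 6 peptide genes rose strongly in both genotypes: Npy, Gal, Nts and Adcyap1. Their differences from control at day 5 in the WT ran from 1.48 for Adcyap1 to 6.76 for Npy. Cck was measured in every sample and did not pass the test, and Vip was not well above background in any sample. At day 2 in the WT, 4 of 6 were called higher and 0 lower, where 5.15% of all gene names, each by its brightest probe, were called higher and 6% lower. At day 5 in the WT it was again 4 of 6 higher, against 6.39% of all genes (7.35% lower). In the KO, 5 of 6 were called higher at day 2, Vip among them, against 5.51% (6.36% lower), and 4 of 6 at day 5, against 6.12% (6.62% lower). The members and the gene lists below were chosen with earlier results of these data known. A count set beside these shares is therefore no test of the set.

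**Figure D1:**
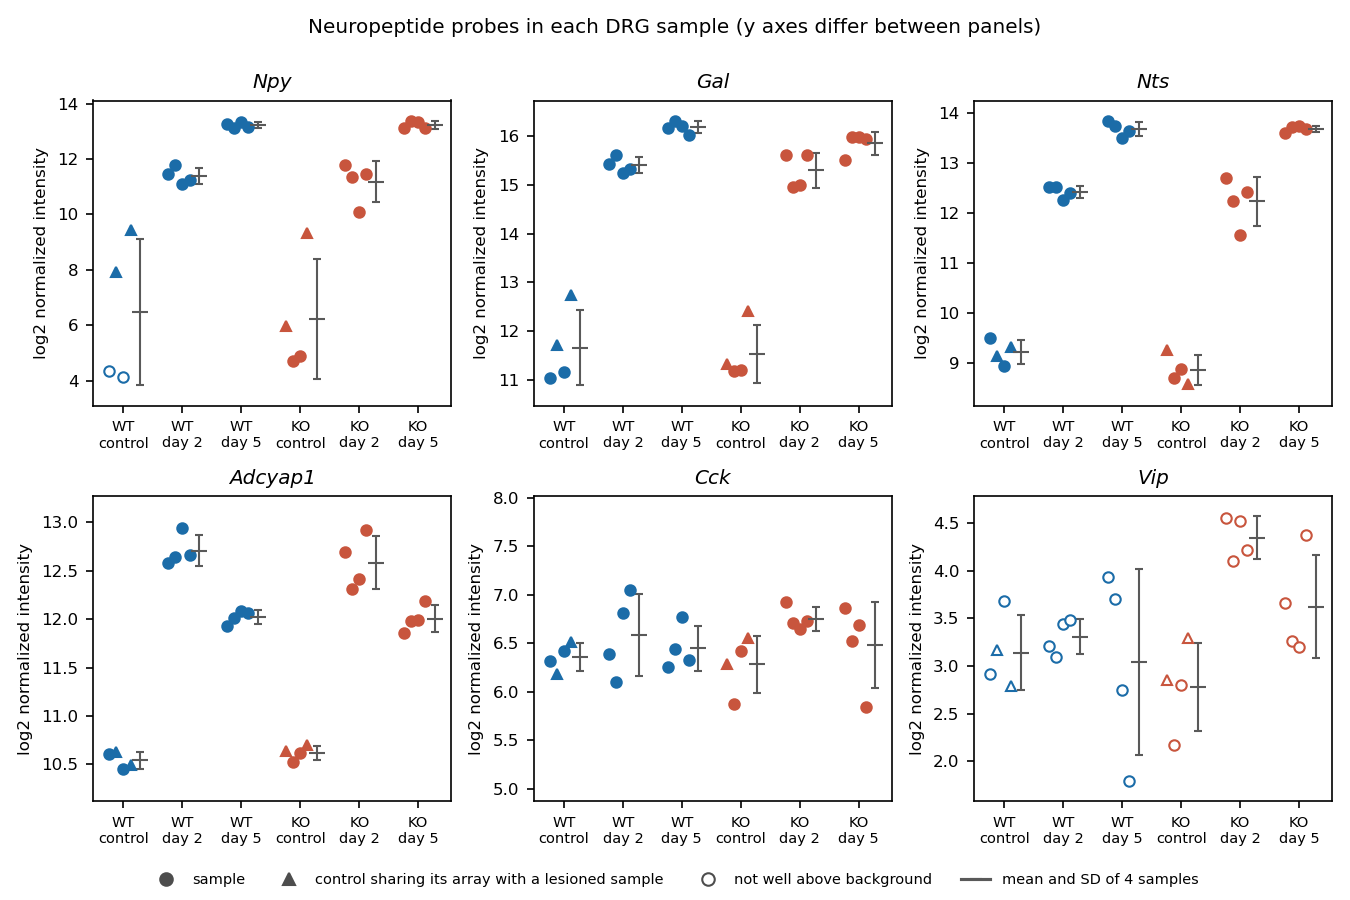
Log2 normalized intensity of the brightest probe of each peptide gene in each of the 24 samples, by genotype and time, with the mean and SD of 4 samples beside the points. Npy, Gal, Nts and Adcyap1 lie higher in every lesioned sample than in every control, Cck lies between 5.84 and 7.05 throughout, and all Vip values are open, that is, not well above background.

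Npy encodes neuropeptide Y, a peptide of sympathetic neurons that injured large sensory neurons also make. In the 4 WT controls it read 4.36, 7.92, 4.15 and 9.45, in replicate order. At day 2 the WT samples read 11.47, 11.78, 11.11 and 11.23. At day 5 they read 13.26, 13.11, 13.35 and 13.17. All lesioned WT samples lay above all controls, the 4 values of day 5 lay above those of day 2, and the controls were spread far wider than the lesioned samples. The SD was 2.63 in WT controls and 0.10 at day 5 (n = 4 each).

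The KO gave the same order. Its controls read 5.96, 4.70, 4.89 and 9.34. Its day 2 samples read 11.79, 11.34, 10.10 and 11.47, and its day 5 samples 13.11, 13.36, 13.35 and 13.12. Day 5, day 2 and control did not overlap. In the WT, Npy rose by 4.93 at day 2 (SE 0.96, 95% interval 2.93 to 6.93, adjusted p = 0.00183) and by 6.76 at day 5 (SE 0.96, 4.75 to 8.76, adjusted p = 5.17e-05). In the KO it rose by 4.95 (adjusted p = 0.0017) and by 7.01 (adjusted p = 3.68e-05). The SE of 0.96 pools the spread of all 6 groups. The controls were spread wider than that pooled spread (SD 2.63 in the WT and 2.15 in the KO). These intervals and p-values therefore understate the uncertainty of the control means. In the WT controls only 2 of 4 samples were well above background, against 4 of 4 in every other group, so the WT differences rest on a control mean that was measured in part.

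The spread of Npy in the controls followed the array layout. The 4 controls that shared an array with a lesioned sample, WT replicates 2 and 4 and KO replicates 1 and 4, read 5.96 to 9.45. The other 4, whose array partner was a control, read 4.15 to 4.89. Gal and Atf3 split the same way without overlap, at 11.31 to 12.74 against 11.03 to 11.20 for Gal and at 9.11 to 10.08 against 7.31 to 7.76 for Atf3. Nts (8.58 to 9.31 against 8.70 to 9.50) and Adcyap1 (10.49 to 10.698 against 10.45 to 10.62) overlapped. Over all gene names, 1.28% had all 4 controls with a lesioned partner above the other 4, and 1.23% had them below. The part of the array partner in these values was not tested. The 2 WT controls whose partner was a control were not well above background. Against their readings Npy was 141-fold higher at day 2 and 501-fold higher at day 5 in the WT (limma, adjusted p = 1.11e-09 and 9.42e-11). These are plain ratios to dim readings and no lower bounds. In the KO, where both controls with a control partner were well above background, Npy differed by 6.38 and 8.44. Without KO control replicate 4, Npy differed by 5.99 and 8.05 in the KO, and without WT control replicate 4 by 5.92 and 7.75 in the WT. Over every single sample left out, the WT day 2 difference ran from 4.15 to 5.92 and passed each time.

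Gal encodes galanin, an inhibitory peptide of sensory neurons with trophic actions after injury. The WT controls read 11.03, 11.70, 11.16 and 12.74. The WT day 2 samples read 15.44, 15.62, 15.25 and 15.34, and those of day 5 read 16.18, 16.31, 16.22 and 16.02. Each time point lay apart from the others in the WT. In the lesioned samples of both genotypes the Gal probe ranked between 34 and 196 by intensity among all 41174 probes.

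In the KO, Gal read 11.31, 11.18, 11.20 and 12.41 in controls, 15.62, 14.96, 14.997 and 15.61 at day 2 and 15.51, 15.99, 15.98 and 15.94 at day 5. Here the day 2 and day 5 samples overlapped, through day 5 replicate 1. Gal rose by 3.75 (SE 0.30, 95% interval 3.12 to 4.39, adjusted p = 3.73e-08) and 4.52 (SE 0.30, 3.89 to 5.16, adjusted p = 1.97e-09) at days 2 and 5 in the WT. In the KO it rose by 3.77 (adjusted p = 4.02e-08) and 4.33 (adjusted p = 3.75e-09). The SE is again pooled over the groups, while the SD was 0.77 in WT controls and 0.12 at day 5 in the WT. Day 5 was a 23.0-fold ratio to control in the WT and a 20.1-fold ratio in the KO. With only the controls that had a control partner, the day 5 differences were 5.08 and 4.66.

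Nts encodes the precursor of neurotensin and neuromedin N, which act on gut, brain and pain pathways. The WT controls read 9.50, 9.13, 8.93 and 9.31, the day 2 samples 12.52, 12.51, 12.26 and 12.39 and the day 5 samples 13.84, 13.74, 13.50 and 13.64. The KO controls read 9.26, 8.70, 8.87 and 8.58, the day 2 samples 12.70, 12.23, 11.55 and 12.43 and the day 5 samples 13.59, 13.71, 13.74 and 13.67. In both genotypes the 3 time points were apart, in steps from control to day 2 to day 5.

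Nts rose by 3.20 (SE 0.19, 95% interval 2.81 to 3.59, adjusted p = 3.99e-10) and 4.46 (SE 0.19, 4.07 to 4.85, adjusted p = 3e-12) in the WT at days 2 and 5. In the KO it rose by 3.38 (adjusted p = 1.67e-10) and 4.83 (adjusted p = 7.81e-13). These were 22.0-fold and 28.4-fold ratios at day 5. The intervals were narrower than those of Npy and Gal, and the values with only the controls that had a control partner, 4.46 and 4.90 at day 5, were close to those over all samples.

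Adcyap1 encodes PACAP, a peptide of the Vip and secretin family that raises cyclic AMP and supports axon growth. The WT controls read 10.61, 10.63, 10.45 and 10.49, the day 2 samples 12.58, 12.64, 12.94 and 12.66 and the day 5 samples 11.93, 12.02, 12.09 and 12.06. The KO controls read 10.64, 10.53, 10.62 and 10.698, the day 2 samples 12.69, 12.31, 12.42 and 12.91 and the day 5 samples 11.85, 11.98, 11.99 and 12.19. Day 2 was the highest time point in both genotypes, and no 2 time points overlapped within a genotype.

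Adcyap1 rose by 2.16 at day 2 (SE 0.12, 95% interval 1.92 to 2.40, adjusted p = 8.75e-11) and by 1.48 at day 5 (SE 0.12, 1.24 to 1.72, adjusted p = 1.54e-08) in the WT. In the KO it rose by 1.96 (adjusted p = 3.73e-10) and 1.38 (adjusted p = 4.17e-08). The day 2 ratios were 4.47-fold and 3.89-fold. Without KO control replicate 4, the KO differences at days 2 and 5 were 1.99 and 1.41 for Adcyap1, 3.28 and 4.73 for Nts and 4.07 and 4.62 for Gal, and all passed.

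Cck encodes cholecystokinin. Its brighter probe was well above background in all 24 samples. It read 6.19 to 6.52 in WT controls, 6.10 to 7.05 at day 2 and 6.26 to 6.78 at day 5, and 5.88 to 6.56, 6.64 to 6.93 and 5.84 to 6.86 in the KO. The groups overlapped, except that the KO day 2 samples all lay above the KO controls. How many gene names lay apart in this way was not counted. The means differed by 0.47 (SE 0.21, 95% interval 0.03 to 0.91), which did not pass the test (adjusted p = 0.175, and 0.139 without KO control replicate 4). At day 5 the difference was 0.09 (-0.35 to 0.53) in the WT and 0.19 (-0.25 to 0.63) in the KO, where it was 0.29 without KO control replicate 4, so the upper ends of the day 5 intervals were 0.53 and 0.63. The other Cck probe passed the background flag in 1 of 24 samples, and no fold is given for it.

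Vip encodes vasoactive intestinal peptide, a relative of PACAP. The files flagged its probe as well above background in 0 of 24 samples, so it has no measured fold in any comparison. The KO day 2 readings, 4.55, 4.10, 4.52 and 4.22, lay above those of the KO controls, 2.85, 2.17, 2.80 and 3.30. That comparison passed the test (adjusted p = 0.00672, and 0.00687 without KO control replicate 4), with neither group well above background. The WT readings lay between 1.79 and 3.93 and passed no comparison. In bulk tissue, fewer cells of a type and less RNA per cell cannot be told apart, for Vip and for every gene described here.

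**Figure D2:**
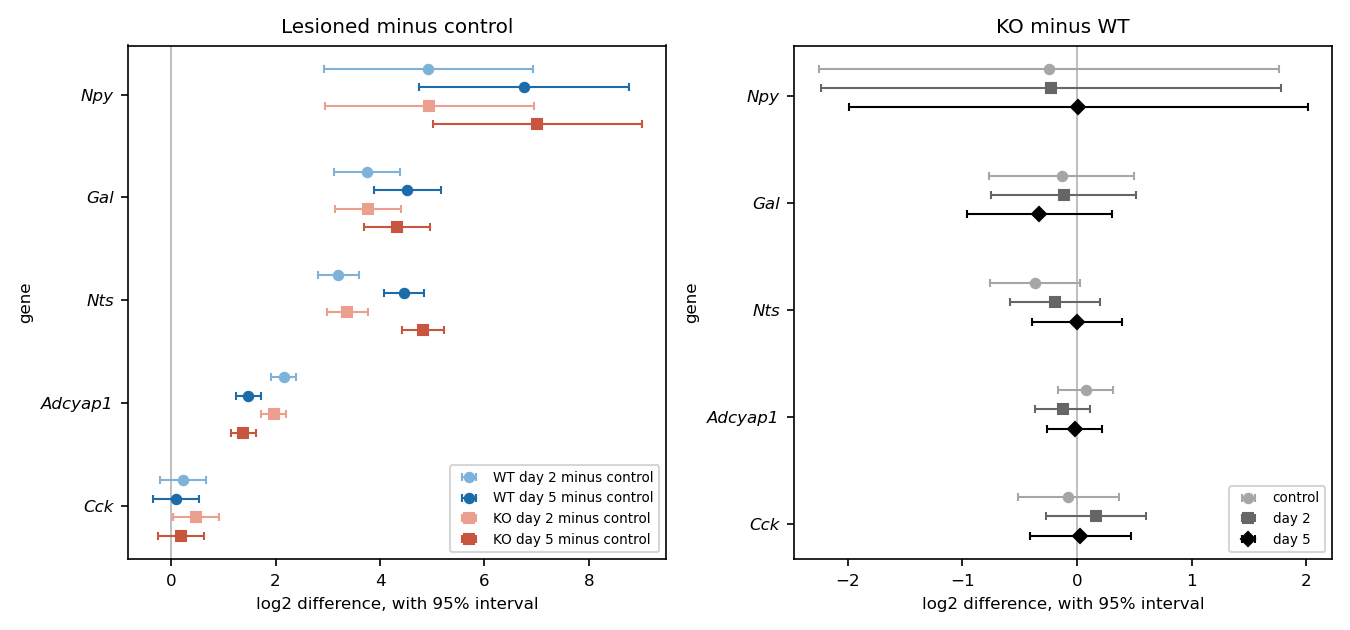
Fitted log2 differences with 95% intervals for the 5 peptide genes measured above background, lesioned minus control (left) and KO minus WT (right). Npy, Gal, Nts and Adcyap1 lie to the right of 0 in all 4 lesion comparisons and Cck lies near 0, and every KO minus WT interval holds 0, with Npy at -1.99 to 2.01 at day 5.

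The direction from day 2 to day 5 differed between members. Nts rose further, by 1.26 in the WT (SE 0.19, 95% interval 0.87 to 1.65, adjusted p = 0.00198) and by 1.45 in the KO (SE 0.19, 1.06 to 1.84, adjusted p = 0.000365). Adcyap1 fell by 0.68 in the WT (SE 0.12, adjusted p = 0.005) and by 0.58 in the KO (SE 0.12, adjusted p = 0.0158). In this comparison 1 of 6 members was higher and 1 of 6 lower in each genotype. Of all gene names, 0.588% were higher and 0.146% lower in the WT, and 0.766% were higher and 0.23% lower in the KO. The KO call of Adcyap1 did not hold without KO day 5 replicate 1, 2 or 3 (-0.53, -0.57 and -0.57, adjusted p = 0.0597, 0.0575 and 0.0531).

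Npy differed between day 5 and day 2 by 1.83 in the WT (adjusted p = 0.589) and 2.06 in the KO (adjusted p = 0.489), which did not pass the test. The samples did not overlap, and the share of all gene names apart in this way was not counted. The SE of 0.96 behind these p-values pools the spread of all 6 groups, the wide controls included. In a fit of only the 16 lesioned samples, chosen after the values were seen, the SE was 0.28 and Npy passed in both genotypes (adjusted p = 0.0105 in the WT and 0.00334 in the KO). Gal differed by 0.77 in the WT (adjusted p = 0.395) and 0.56 in the KO (adjusted p = 0.592), and in the 16 lesioned samples by the same amounts (adjusted p = 0.0896 and 0.247). In that fit Adcyap1 kept its call in the WT (adjusted p = 0.0463) and lost it in the KO (-0.58, adjusted p = 0.0885).

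No member differed between KO and WT by the test. At day 5 the difference KO minus WT was 0.0091 for Npy (95% interval -1.99 to 2.01), -0.33 for Gal (-0.96 to 0.31), -0.0015 for Nts (-0.39 to 0.39), -0.02 for Adcyap1 (-0.26 to 0.22) and 0.03 for Cck (-0.41 to 0.47). The 4 WT samples lay above the 4 KO samples for Gal at day 5, a difference that did not pass (adjusted p = 1), and for Npy, Nts, Adcyap1 and Cck the genotypes overlapped. The share of all gene names whose genotypes lay apart at day 5 was not counted, so this order of the samples is no result about Gal. At day 2 the difference KO minus WT was -0.22 for Npy (-2.23 to 1.78), -0.11 for Gal (-0.75 to 0.52), -0.19 for Nts (-0.59 to 0.20), -0.12 for Adcyap1 (-0.36 to 0.12) and 0.17 for Cck (-0.27 to 0.61). In controls it was between -0.37 (Nts) and 0.08 (Adcyap1) among these genes. Of all gene names, 0% differed in controls, 0.0073% at day 2 and 0.0109% at day 5.

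The test of whether the lesion response differed between genotypes called 0 of 6 members and 0% of all gene names (limma, F test of the interaction, with 980 of 41174 probes at an unadjusted p under 0.05). The adjusted p was 0.99998 for every member. Without KO control replicate 4 the interaction again called 0 members, and the differences between KO and WT controls were -1.28 for Npy, -0.43 for Gal, -0.28 for Nts and 0.05 for Adcyap1, and none passed. For Adcyap1 and Nts the intervals bound a genotype difference at day 5 to under 0.26 and 0.39 on the log2 scale. For Npy the interval is wide.

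The receptors of the 6 peptides did not move as a group. Of 16 receptor genes on the array, 12 were well above background in at least 12 samples. At day 5 in the WT 2 were higher, 2 lower and 12 not called (median difference 0.06, against -0.03 over all gene names), where 6.39% and 7.35% of all gene names were called higher and lower. In the KO 2 were again higher and 2 lower (6.12% and 6.62% of all), and without KO control replicate 4 it was 2 higher and 1 lower. The lower receptors also came to 1 in both genotypes with only the controls that had a control partner. In the WT they came to 1 without WT control replicate 1, 2 or 3, WT day 2 replicate 4, any WT day 5 sample, any KO control, KO day 2 replicate 2 or KO day 5 replicate 2 or 3, and in the KO without any KO control or KO day 5 replicate 4. Both called higher were receptors of cholecystokinin, whose own gene passed no test. Cckbr, the receptor for gastrin and sulphated or unsulphated cholecystokinin, read 4.5, 5.41, 4.55 and 6.44 in WT controls, 9.46 to 9.93 at day 2 and 10.64 to 10.95 at day 5. It rose by 5.52 in the WT (SE 0.42, adjusted p = 1.3e-08) and by 5.39 in the KO (SE 0.42, adjusted p = 1.99e-08) at day 5. Its controls also split by array partner, at 5.17 to 6.60 against 4.15 to 4.88, and 3 of 4 WT and 2 of 4 KO controls were well above background. With only the controls that had a control partner, the differences were 6.22 and 6.07, and without KO control replicate 4 the KO value was 5.85.

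Cckar, the receptor that prefers sulphated cholecystokinin, had means of 8.90 ± 0.34 in WT controls and 10.20 ± 0.25 at day 5 (SD, n = 4) and rose by 1.29 (adjusted p = 3.29e-05). The rise in the KO was 1.27 (adjusted p = 4.58e-05, and 0.000277 without KO control replicate 4). Ntsr2, a neurotensin receptor, moved against its peptide: it went from 8.12 ± 0.25 to 6.57 ± 0.28 (SD, n = 4) in the WT and fell by 1.56 (adjusted p = 4.57e-05), and in the KO it fell by 1.44 (adjusted p = 0.000121, and 0.000393 without KO control replicate 4). Galr1, an inhibitory galanin receptor, fell by 0.91 in the WT (adjusted p = 0.0471). The KO value was -0.85 (adjusted p = 0.069, and 0.107 without KO control replicate 4), and with only the controls that had a control partner the WT value was -0.85 with an adjusted p of 0.238. Npy1r, Npy2r and Adcyap1r1 differed by 0.04, 0.29 and -0.03 at day 5 in the WT and passed no test there.

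**Figure D3:**
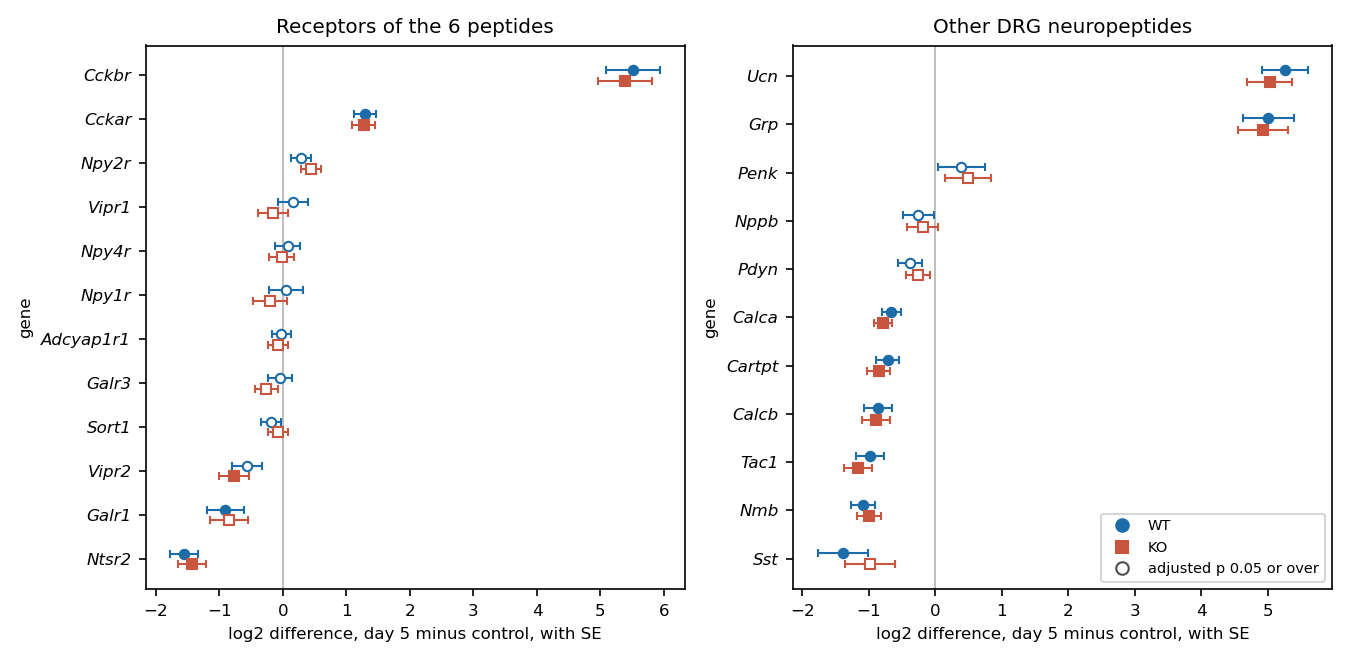
Log2 difference between day 5 and control with its SE for the receptors of the 6 peptides (left) and other DRG neuropeptides (right) that were well above background in at least 12 of 24 samples, with WT as circles and KO as squares, filled where the adjusted p was under 0.05. Cckbr, Ucn and Grp stand to the right near 5, and Ntsr2, Sst, Nmb and Tac1 stand to the left. The controls of Grp were not well above background, so its plotted value is no measured ratio.

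Other neuropeptides of the DRG moved in both directions. Of 11 genes, 2 were higher, 6 lower and 3 not called at day 5 in the WT (median difference -0.66), against 6.39% higher and 7.35% lower over all gene names. In the KO 2 were higher, 5 lower and 4 not called (median -0.79), against 6.12% and 6.62%. With only the controls that had a control partner, 2 were lower in the WT and 3 in the KO. Ucn, which encodes urocortin, a relative of corticotropin-releasing hormone, had means of 4.75 ± 0.86 in WT controls and 10.00 ± 0.20 at day 5 (SD, n = 4), a rise of 5.25 (adjusted p = 1.26e-09). The rise in the KO was 5.03 (adjusted p = 2.61e-09, and 5.86e-09 without KO control replicate 4). Only 2 of 4 WT controls were well above background for it.

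Grp, which encodes gastrin-releasing peptide, was well above background in 0 of 8 controls and in 16 of 16 lesioned samples. Its controls were set to the lowest signal well above background in each sample, or to their own reading where that was higher. Against these levels Grp was 17.6-fold higher at day 5 in the WT and 27.0-fold higher in the KO. Readings that were not well above background could exceed that lowest signal, as those of Npy did in WT control replicates 1 and 3 (4.36 and 4.15). The 2 ratios are therefore no lower bounds. The fit called both (adjusted p = 1.08e-08 and 1.38e-08). Those that fell included Nmb, which encodes neuromedin B (-1.09, adjusted p = 0.000268 in the WT), Sst, which encodes somatostatin (-1.39, adjusted p = 0.0172), and Tac1, the substance P gene (-0.99, adjusted p = 0.0028). With only the controls that had a control partner, 2 genes of this list were lower in the WT, so not every WT fall named here kept its call. Over all controls the KO values were -1.0 for Nmb (adjusted p = 0.00072), -0.98 for Sst (adjusted p = 0.109) and -1.16 for Tac1 (adjusted p = 0.000767). Without KO control replicate 4 the adjusted p in the KO was 0.0025 for Nmb, 0.139 for Sst, 0.00243 for Tac1 and 2.94e-08 for Grp.

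Genes for relatives of the 6 peptides were called in neither genotype. Of 8, among them Pyy of the neuropeptide Y family and Sct of the secretin family, 0 were called at day 5 in either genotype by limma, where 6.39% of all gene names were higher and 7.35% lower in the WT, so that a count of 0 of 8 is not a result about them. Of the 8, 4 were well above background in at least 12 samples. Pyy differed by -0.03 and Sct by 0.09 in the WT.

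Genes that process peptides and build secretory granules mostly fell or were not called. Of 17 on the array, 2 were higher, 7 lower and 8 not called at day 5 in the WT, and 1 higher and 8 lower in the KO (median differences -0.37 and -0.40). Over all gene names 6.39% were higher and 7.35% lower in the WT, and 6.12% and 6.62% in the KO. With only the controls that had a control partner, 0 were higher and 4 lower in the WT and 3 lower in the KO. Without WT day 5 replicate 1, 4 were lower in the WT, without KO day 5 replicate 4, 5 were lower in the KO, and without KO control replicate 4, 7 were. Cadps2, a factor for the priming of dense-core vesicles, fell by 1.21 (adjusted p = 0.000154). Chga and Chgb, granins of the granule matrix, fell by 0.78 and 0.64 (adjusted p = 0.000857 and 0.00385), and Scg3, a granin-binding protein, fell by 0.67 (adjusted p = 0.022). Qpct and Ptprn were the 2 called higher, by 0.63 (adjusted p = 0.00164) and 0.55 (adjusted p = 0.00591). Of 6 peptidases, 1 was higher and 0 lower in each genotype at day 5, against the same shares of all gene names: Nln, or neurolysin, which cleaves neurotensin, rose by 0.89 in the WT (adjusted p = 0.000132) and by 0.58 in the KO (adjusted p = 0.00803, and 0.0257 without KO control replicate 4). With the probes of a gene averaged 0 were higher in the KO, and without KO control replicate 1, 1 was lower there. Mme, Ece1 and Ece2 differed by -0.36, -0.25 and -0.33 in the WT and were not called.

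The genes whose pattern over the 24 samples was most like each member were taken by Pearson's r among the 17676 other gene names whose brightest probe passed the background flag in 12 or more samples. Control and lesioned samples lie apart for these genes, so r largely follows that step. For Npy they were Sprr1a (r = 0.9951), Gm12854 (0.9819) and Cckbr (0.9708). Sprr1a, a cornified envelope gene expressed in injured neurons, had controls that split by array partner as those of Npy did, at 8.22 to 11.78 against 5.53 to 6.17. For Gal they were Cckbr (0.9946), Stmn4 (0.9922) and Slc6a4 (0.9898), for Nts 2010005H15Rik (0.9926), Akr1b8 (0.9902) and Itpr1 (0.9888). For Adcyap1 they included Procr (0.9868) and Pde7a (0.9781), both with a larger difference at day 2 than at day 5: in the WT 3.13 and 2.30 for Procr and 1.41 and 1.15 for Pde7a. For Cck the highest was 0.7762 (Lck).

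Markers of other cells were read beside these results. The summed linear intensity of the 4 macrophage markers Cd68, Aif1, Csf1r and Itgam was 848 to 1650 in WT controls, 1410 to 2470 at day 2 and 3280 to 4000 at day 5, and 4 of 4 were called higher at day 5 in both genotypes. Of 5 markers of sympathetic neurons, which make neuropeptide Y, 1 was called higher at day 5 (Phox2a, whose probe passed the background flag in 1 of 4 controls of the WT, in 0 of 4 of the KO and in 4 of 4 samples of each genotype at day 5), and Dbh differed by 0.48 (adjusted p = 0.178). Slc6a2, the noradrenaline transporter gene, was well above background in 0 of 24 samples. Their summed intensity was 74.7 to 97.9 in WT controls and 111 to 130 at day 5. Of 6 neuron markers 3 were lower (Rbfox3, Snap25 and Isl1) and 1 higher (Tubb3) at day 5 in each genotype. Of 3 satellite glia markers 1 was higher (Glul) and 0 lower, and of 3 markers of central glia and spinal cord 1 was lower (Aqp4) and 0 higher, at day 5 in each genotype. Of the markers of Schwann cells (4), T cells (3), fibroblasts (3), endothelium (2), skeletal muscle (3) and blood (2), 0 were called by limma at day 5 in either genotype. Over all gene names 6.39% were higher and 7.35% lower at day 5 in the WT, and 6.12% and 6.62% in the KO. A count of 0 among so few markers is near these shares and is no result about those cells. The muscle and blood markers varied widely within groups. Their sums were 66.8 to 1700 in WT controls and 76.3 to 9470 at day 5 in the KO for muscle. For blood they were 31400 to 84400 and 54900 to 190000. With this spread, the lack of a call does not show equal levels. The part of all these cells in the rise of the peptide genes was not tested.

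The promoters of the peptide genes are shown for the members that rose. They are from RefSeq on GRCm38.p6, and each is the 250 bases before the transcription start, 5′ to 3′ on the gene's strand. Motifs were searched on both strands: TGACGTC, the core of the cyclic AMP response element, CGTCA, a shorter form of it, TTANGTAA, an NFIL3 site, TGANTCA, an AP-1 site, and TTCNNNGAA, a STAT site. CGTCA is contained in TGACGTC, read on the other strand. Capitals mark a match.
Npy, chr6:49822460-49822709, plus strand: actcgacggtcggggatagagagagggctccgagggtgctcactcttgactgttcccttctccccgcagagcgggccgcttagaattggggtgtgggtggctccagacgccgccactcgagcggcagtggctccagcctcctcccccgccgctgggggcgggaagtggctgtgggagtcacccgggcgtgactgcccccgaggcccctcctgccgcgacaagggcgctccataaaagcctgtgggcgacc
Gal, chr19:3414545-3414794, minus strand: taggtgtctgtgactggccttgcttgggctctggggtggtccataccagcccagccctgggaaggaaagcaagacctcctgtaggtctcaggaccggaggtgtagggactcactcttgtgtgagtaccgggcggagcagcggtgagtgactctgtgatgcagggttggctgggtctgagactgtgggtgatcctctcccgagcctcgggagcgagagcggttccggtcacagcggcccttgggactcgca
Nts, chr10:102490419-102490668, minus strand: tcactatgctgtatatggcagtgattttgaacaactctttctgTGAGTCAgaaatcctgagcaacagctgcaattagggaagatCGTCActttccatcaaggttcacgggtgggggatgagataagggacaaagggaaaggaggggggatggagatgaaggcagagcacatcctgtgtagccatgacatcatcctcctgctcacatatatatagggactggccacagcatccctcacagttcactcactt
Adcyap1, chr17:93198767-93199016, plus strand: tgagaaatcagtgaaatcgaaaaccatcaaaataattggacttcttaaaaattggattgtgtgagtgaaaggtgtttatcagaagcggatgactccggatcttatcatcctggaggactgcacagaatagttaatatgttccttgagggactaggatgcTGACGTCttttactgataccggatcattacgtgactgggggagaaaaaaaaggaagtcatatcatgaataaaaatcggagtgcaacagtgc
The table holds 7 promoters for the 6 members, of which Adcyap1 has 2 that share bases. TGACGTC was found in those of Adcyap1, from 91 to 85 bases before the start shown, and Vip, from 79 to 73, and 2.78% of 32851 promoters hold it. TGANTCA was found in Nts, from 207 to 201 bases before its start, and 6.75% of promoters hold it. CGTCA was found in Vip, Adcyap1, Nts and Cck (17.8% of promoters), while TTANGTAA (2.06%) and TTCNNNGAA (7.02%) were in 0 of the 7. Neither the Npy nor the Gal window held any of the 5 motifs. The share of all promoters that hold none was not counted, so this is no result about the 2 genes.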

How the data were processed

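Total RNA of 24 DRG samples was measured as intensities. Per the file headers, the authors scanned the arrays and extracted spots with Agilent Feature Extraction 10.7.3.1, and the deposited intensity columns hold mean and median foreground, local background and processed signal of each dye. Which sample each dye held was taken from the labels. Here, background was corrected by the Edwards method, outlier spots were left out (417 missing probe values), channels were quantile normalized on the linear scale and log2 transformed, and spots of a probe were averaged (R 4.3.3, limma 3.58.1). A model of 6 group means over all 24 samples was fitted with lmFit and eBayes, and a gene was represented by its brightest probe. The members and gene lists were chosen with earlier results of these data known. Genes named beside the members were the up to 4 with the largest WT day 5 difference per list among those well above background in at least 12 samples, and the 3 most like each member, of which 1 is not reported here. Tac1, Qpct, Ptprn and the receptors not called were named after their values were seen. Of 18 processing genes, Vgf was not matched to the array's names. The fit was tested on simulated data with independent noise and the same spread of a probe in all groups. That simulation does not cover samples that share an array or controls spread wider than lesioned samples. The number of arrays limits the precision. No replicate was found to be a copy of another (0 identical pairs). Alternatives covered background, normalization, outlier spots, dim probes, dye, slide, array, replicate number, array partner and each sample left out.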

Additional observations from a re-analysis of the deposited data

Results flagged for a closer look

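For Gal, 2 samples stood far from the other 3 of their group, by the gap to the nearest sample over the range of the group. KO control replicate 4 read 12.41, against 11.31 for the next (0.892 of the range), and is the sample with conflicting labels. It shared its array with a KO day 5 sample. WT control replicate 4, whose array partner was also lesioned, read 12.74. KO day 5 replicate 1 read 15.51, against 15.94 for the next (0.887 of the range). Each of the 7 member probes was screened in every group, and chance flags about 1 in 20 such sets of samples.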

How the results depend on the processing

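Across 39 alternatives, 24 of them leaving out 1 sample, 801 differences that were called in all samples were recomputed: 796 kept their direction and passed, 5 kept their direction without passing and 0 reversed. Those 5 were Adcyap1 between day 5 and day 2 in the KO (4 alternatives, adjusted p up to 0.0885) and Vip in the KO at day 2 (loess, adjusted p = 0.0816). The count of members called in the KO from day 2 to day 5 ranged from 1 to 2 over the samples left out. With only the controls whose partner was a control, members called from day 2 to day 5 in the WT went from 2 to 4, Npy (adjusted p = 0.0034) and Gal (adjusted p = 0.044) being added. In the KO they went from 2 to 3, with Npy added (adjusted p = 0.00096). At day 5 in the WT, over 38 alternatives, 1 to 3 receptors, 2 to 6 other DRG neuropeptides and 4 to 10 processing genes were lower, and 0 to 2 processing genes were higher. In the KO it was 1 to 3, 3 to 5 and 3 to 8 lower, and 0 to 1 peptidases were higher.

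The replicate block, with the replicate number as a term, left the members called at 4 at day 2 and 4 at day 5 in the WT and changed no call of a member. Same-numbered samples of 2 groups deviated together with a correlation over 0.1 in 27 of 60 pairs (-0.585 to 0.594, median 0.058). Among pairs of other numbers with the same dye it was 19 of 60 (median -0.033). Of 24 samples, 9 correlated best with their own number. This check cannot decide whether a control and a lesioned sample came from the same mouse, and the main model did not pair samples. Slide as a block changed no call of a member, and within slides Npy, Gal, Nts and Adcyap1 were above control in each of 9 comparisons per gene, at 2.22 to 8.94, 2.88 to 5.16, 2.48 to 5.11 and 1.29 to 2.39. The level of Vip is limited by its signal, which did not rise well above background.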
